A study of Mus musculus with 6 samples.

Results

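The AP-1 family was examined as 10 genes (Fos, Fosb, Fosl1, Fosl2, Jun, Junb, Jund, Batf, Batf3 and Atf3) of the 21938 protein-coding genes in the annotation. The genes were chosen by name, and their chromatin was followed through every accessible region whose summit lay from 50 kb before to 50 kb after the gene. AP-1 is a dimeric transcription factor in which a Fos-family protein, a Batf protein or an Atf protein pairs with a Jun-family protein through a leucine zipper and binds a short palindrome in DNA. Many of its genes belong to the immediate early genes, which are induced within minutes by serum, growth factors or stress through serum response factor, cAMP response element binding proteins and AP-1 itself. In cultured fat precursors several of them are induced early after the hormone cocktail is added.

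Chromatin accessibility was measured by ATAC-seq, in which a transposase cuts open DNA, in 6 libraries of 3 groups, with 2 libraries per group. All cells came from the stromal vascular fraction, the precursor-containing cells of fat tissue, of male wild type C57 mice, stated as C57BL/6J and 3-4 weeks old in the protocols, and were collected after 7 days of differentiation. Beige and White cells were both derived from inguinal subcutaneous fat, and Brown cells from brown adipose tissue. The Beige and Brown media held insulin at 5 μg/ml per the labels, dexamethasone at 5 μM, triiodothyronine (T3) at 1 nM, the PPARγ agonist rosiglitazone at 1 μM and IBMX at 0.5 mM. The White medium held insulin at 5 μg/ml per the labels, dexamethasone at 1 μM and IBMX at 0.5 mM, without T3 or rosiglitazone. The study's methods give lower insulin doses that are not the same in the Beige and White media, so insulin may be a further difference between them. Brown therefore differed from White in both tissue of origin and medium, which cannot be told apart. The Brown libraries are also absent from the study's methods, which do not state whether they were prepared together with the others. A difference in preparation can therefore not be told apart from any Brown comparison. The study describes its ATAC-seq libraries as biological replicates, but neither it nor the labels say whether those of a group came from separate mice, so p-values measure only the spread between these libraries. Each list held 109143 to 127490 peaks, and peaks merged over libraries gave 194610 regions. The lists hold no read counts, but the study's depth table gives more mapped reads, and a larger mapped share, for both White than for both Beige libraries, and has no entry for Brown. Promoter peaks of all 8 adipocyte markers were present in all 6 libraries. Not all were strong by fold enrichment: Adipoq lay above 2.5% of the list in Beige 1 and Plin1 above 5.2% in White 2. Pdgfra, Dpp4, Cd34 and Pdgfrb, 4 of 6 progenitor markers, had one in every library, Pi16 in all but Brown 1 and Ly6a in none. Of 5 brown adipocyte markers, Lhx8, Ebf2 and Cidea had one in all 6 libraries, Zic1 in both Brown libraries and Beige 2, and Ucp1 in both Brown libraries alone, as weak peaks above 9.1% and 4.2% of their lists. Of 6 macrophage markers, Adgre1 and Cd68 had a promoter peak in all 6 libraries, Lyz2 in Brown 1 alone, and Csf1r, Spi1 and Ptprc in none. Of 5 endothelial markers, Pecam1 and Kdr had one in all 6 libraries, above 65.6% to 88.5% and 71.1% to 79.8% of the lists. Tie1 had one in Beige 1 and White 1 only, and Cdh5 and Emcn had none in any library.

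The promoters of the AP-1 genes held matches to elements known from immediate early genes, and these sequences are shown first because peaks lay over them. The searched letters were TGANTCA for AP-1, TGACGTCA for the cAMP response element (CRE), and the serum response factor element called CArG, each on both strands and within 500 bp of every start site. Matches were found for Fos, Fosb, Fosl1, Fosl2 and Jund, and none for Jun, Junb, Batf, Batf3 or Atf3. Of 41438 annotated start sites, 18.9% had an AP-1 match, 3.23% a CRE match and 4.02% a CArG match in the same window. Sequences are from the RefSeq copy of GRCm38.p6, the same build as mm10, on the strand of the gene, with the match in capitals.
Fos upstream, CArG (chr12:85473536-85473635, + strand): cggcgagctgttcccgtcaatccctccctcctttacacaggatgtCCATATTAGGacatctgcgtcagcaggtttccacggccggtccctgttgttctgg
Fosb upstream, CArG (chr7:19310263-19310362, - strand): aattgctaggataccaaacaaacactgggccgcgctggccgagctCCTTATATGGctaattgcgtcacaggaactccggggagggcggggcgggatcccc
Jund upstream, CRE (chr8:70698690-70698787, + strand): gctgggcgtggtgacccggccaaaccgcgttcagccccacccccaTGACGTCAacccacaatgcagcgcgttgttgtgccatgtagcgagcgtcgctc
Fosl1 5′ UTR, AP-1 (chr19:5447886-5447914, + strand): agaggcgcgagTGAGTCAgaaccgcagcc
Fosl2 5′ UTR, AP-1 (chr5:32135843-32135871, + strand): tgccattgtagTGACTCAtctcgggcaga
The first base of the match lay 309 bases before the start site of Fos, 266 before the first start site of Fosb and 214 before that of Jund, and 350 bases after the start site of Fosl1 and 53 after that of Fosl2. A peak covered each of these 5 matches in all 6 libraries. The nearest summit lay 288 to 308 bp from the CArG match of Fos in 5 libraries and 12 bp from it in White 1. It lay 33 to 70 bp from the AP-1 match of Fosl2, 2 to 38 bp from the AP-1 match of Fosl1 and 22 to 56 bp from the CArG match of Fosb. For Jund the distance was 16 to 44 bp in 5 libraries and 202 bp in Brown 1. Fos also had an AP-1 match, TGAATCA, 462 bases before its start site, which a peak covered in 1 of 6 libraries.

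Further matches lay in distal regions. A region 2.1 kb after the Junb start site, beyond the end of its annotated protein-coding transcript, held a CArG match and had a peak in all 6 libraries. A region 12.1 kb after the Fos start site also held a CArG match. A region 50.6 kb after the Jun start site held 2 AP-1 matches, and the Atf3 region that passed the test described below held 1. These 4 windows reach 100 bp to each side of the strongest summit.
Junb +2.1 kb (chr8:84976540-84976740, - strand): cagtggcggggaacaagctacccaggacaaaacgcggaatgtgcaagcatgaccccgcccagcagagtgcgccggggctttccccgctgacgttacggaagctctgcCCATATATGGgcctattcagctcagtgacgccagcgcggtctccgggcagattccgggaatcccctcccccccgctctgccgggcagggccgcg
Fos +12.1 kb (chr12:85485930-85486130, + strand): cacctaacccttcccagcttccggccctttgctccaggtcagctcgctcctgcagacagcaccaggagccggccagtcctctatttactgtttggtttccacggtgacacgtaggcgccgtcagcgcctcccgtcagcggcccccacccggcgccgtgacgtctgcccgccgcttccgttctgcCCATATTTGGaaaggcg
Jun +50.6 kb (chr4:95001494-95001694, - strand): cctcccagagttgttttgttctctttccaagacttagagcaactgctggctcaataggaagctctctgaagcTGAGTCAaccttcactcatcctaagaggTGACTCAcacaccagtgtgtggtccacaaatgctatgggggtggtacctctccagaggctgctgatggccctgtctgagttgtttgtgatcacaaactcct
Atf3 -21.7 kb (chr1:191239679-191239879, - strand): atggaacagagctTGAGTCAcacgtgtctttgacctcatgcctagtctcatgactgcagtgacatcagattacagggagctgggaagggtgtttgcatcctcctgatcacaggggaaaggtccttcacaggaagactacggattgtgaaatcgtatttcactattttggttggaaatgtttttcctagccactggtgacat
An AP-1 match occurred within 100 bp of the summit in 50 of the 240 distinct regions near the 10 genes (20.8%), and in 21.2% of all regions. The share of AP-1 matches near these genes was therefore close to that of the whole table. A CArG match in the same window occurred in 4 of the 240 regions (1.67%) and in 0.98% of all regions. Among distal regions it occurred in 2 of 187 (1.07%), and in 1.03% of all distal regions. A match is a description of letters, not of a bound site.

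Promoter peaks, with a summit within 1 kb of a start site, were present in all 6 libraries for 9 of the 10 genes, and 61.8% of all protein-coding genes had such peaks. Batf, a lymphoid-enriched partner of Jun proteins, was the exception. Its promoter peak was called only in Beige 2 and Brown 1, 644 and 631 bp after the start site, with -log10 q values of 4.94 and 3.65, where the calling limit is about 1.3. Both White libraries, Beige 1 and Brown 2 had no Batf promoter peak.

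The level of a promoter was expressed as a percentile, the percent of peaks in the same list with a lower fold enrichment over local background. The Fos promoter lay at 63.8 and 60.8 in Beige, 72.5 and 74.1 in White, and 75.2 and 76.6 in Brown. By this measure the 3 groups did not overlap, with Beige lowest and Brown highest. By -log10 q they overlapped, with percentiles of 95.2 and 95.6 in Beige, 92.1 and 95.2 in White, and 96.3 and 94.1 in Brown. Fosb, a close relative of Fos, lay at 57.2 and 51.3 in Beige, 64.2 and 39.0 in White, and 62.3 and 74.2 in Brown. The strongest Fosb promoter peak lay about 0.3 kb before the first start site in Beige and Brown, but 882 and 842 bp after a start site in White. In the region that holds the Beige and Brown peaks, White lay at 52.2 and 38.8, below both Brown libraries. That region is the Fosb promoter in the test between groups below. Fosl1 and Fosl2 encode Fra-1 and Fra-2, which lack the strong transactivation domain of Fos. Fosl1 lay at 61.5 and 56.5, 62.5 and 71.6, and 53.3 and 68.3 in Beige, White and Brown, respectively. Fosl2 lay at 45.6 and 37.9 in Beige and 69.9 and 68.4 in Brown, but at 76.8 in White 1 and 21.3 in White 2. The distance between the White libraries of Fosl2 exceeded that between any of the other 4 libraries.

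Among the Jun genes, Jun lay at 40.4 and 38.8 in Beige, 62.3 and 42.6 in White, and 61.3 and 72.8 in Brown. Junb, which antagonizes Jun at some targets, was the lowest of the 9 genes with a mean of 32.8 ± 11.4 (SD, n = 6), and lay between 16.1 and 50.04. Jund, the most constitutively expressed Jun gene, lay at 69.6 and 53.8 in Beige, 51.3 and 20.2 in White, and 68.8 and 79.0 in Brown, so that both White libraries were below all others. The Jund peak of White 1 was 211 bp wide with its summit 463 bp before the start site, and was not the peak nearest the CRE match. In the other libraries the peak was 891 to 1471 bp wide, with its summit 9 to 240 bp before the start site. Batf3, known for its role in dendritic cells, lay at 50.7 and 50.2, 58.2 and 50.9, and 32.8 and 59.6 in Beige, White and Brown. Atf3, a stress-induced repressor, was the highest with a mean of 78.9 ± 11.1 (SD, n = 6). It lay at 69.7 and 74.4 in Beige, 83.7 and 64.3 in White, and 88.7 and 92.3 in Brown. By their means the order was Atf3, Fos, Fosl1, Fosb, Jund, Fosl2, Jun, Batf3 and Junb, and most neighbours in that order differed by less than the SD of either gene over the 6 libraries. The exceptions were Fos and Fosl1, and Batf3 and Junb, which differed by more than either SD, and Atf3 and Fos, which differed by more than the SD of Fos but less than that of Atf3.

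**Figure D1:**
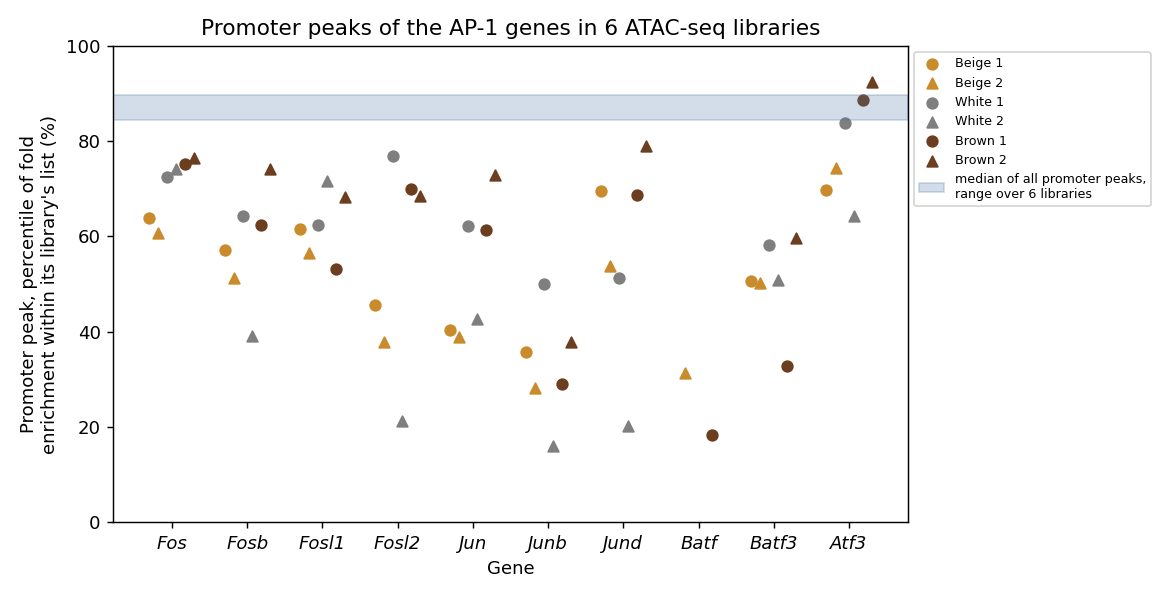
Percentile of fold enrichment of each AP-1 gene's strongest promoter peak within its own library's list (y axis, percent) for 10 genes (x axis). Circles and triangles are libraries 1 and 2 of each group, and the blue band spans the medians of all promoter peaks in the 6 libraries (84.4 to 89.7), above nearly all AP-1 promoters except those of Atf3 in Brown.

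The AP-1 promoters ranked low among promoters by fold enrichment. The median AP-1 promoter stood at the percentile of 42.6 (White 2) to 72.8 (Brown 2), whereas the median of all promoter peaks stood at 84.4 to 89.7. Counted among promoters alone, 18.3% to 32.7% of promoter peaks lay below that of Fos, 3.0% to 12.4% below that of Junb, and 23.0% to 58.2% below that of Atf3. The ranking depended on the measure. By -log10 q, 52.6% to 70.8% of promoters lay below Fos, 22.9% to 41.1% below Junb, 48.0% to 93.6% below Atf3, and 9.1% to 18.0% below Batf3. Other immediate early genes, a list of 12 that included Egr1 and Myc, also had median promoter percentiles of 48.3 to 78.8 over the libraries. The median for 12 MAP kinase pathway genes was 86.0 to 95.6 and for 6 serum response factor pathway genes 81.4 to 89.1. The 12 partners of the same bZIP class had medians of 72.1 to 92.9, and Batf2 alone of these lacked a promoter peak in a library, Brown 2. None of these 4 lists had a promoter region that passed the test between groups. Low medians were not particular to immediate early genes. They were 54.6 to 81.1 for the adipocyte markers, 50.9 to 75.8 for the progenitor markers and 42.9 to 73.6 for the brown adipocyte markers. The endothelial markers had 71.4 to 78.6 and the macrophage markers 20.7 to 33.8, over the markers with a promoter peak.

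Between groups, both Brown libraries lay above both Beige libraries for 5 of the 9 genes (Fos, Fosb, Fosl2, Jun and Atf3), while this held for 33.4% of the 13547 genes with promoter peaks in all libraries, and the reverse held for 0 of 9 and 17.3%. Both White libraries lay above both Beige libraries for 4 of 9 (Fos, Fosl1, Jun and Batf3) against 19.8%, and Beige above White for 1 of 9 (Jund) against 28.6%. Brown lay above White for 3 of 9 (Fos, Jund and Atf3) against 34.9%, and White above Brown for 0 of 9 against 14.9%. These counts depended on the measure. By -log10 q, Brown lay above Beige for 3 of 9 (Fosl2, Jun and Atf3) against 15.3%, and Beige above Brown for 2 (Fosl1 and Junb) against 34.3%. White lay above Beige for 1 (Batf3) against 17.3%, and Beige above White for 2 (Fosb and Jund) against 35.8%. Brown lay above White for 4 (Fosb, Jun, Jund and Atf3) against 29.1%, and White above Brown for 0 against 23.0%. With 2 libraries against 2, an exact permutation test of a single gene cannot give p below 0.333, and the test across all regions below called none of the 9 promoters.

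The strongest peak of each window by fold enrichment was never the gene's own promoter. The share of all protein-coding genes for which this holds is not given, so it is not read as particular to these genes. Ranks within the window by -log10 q are not given either. Around Fos, which has no other coding gene within 50 kb, the top peak lay 18.4 kb before or 12.1 kb after the start site in every library. These regions had percentiles of 86.3 to 92.7 and 77.4 to 96.3. For Junb the top peak lay 19.4 kb upstream, inside a coding exon of Hook2, at percentiles of 91.3 to 99.9. For Jun the region 50.6 kb downstream, with the pair of AP-1 matches shown above, lay at percentiles of 95.3 to 99.1 in all 6 libraries, and was the top peak in 5. Its nearest start site was one of Mysm1. For Fosl2 the top peak lay 62.1 kb after the start site in every library, with percentiles of 78.5 to 92.1, and its nearest start site was one of Plb1. The own promoter ranked between 2nd (Atf3 in Brown 2) and 19th (Junb in White 2 and Brown 2). Batf had an intronic region 19.0 kb after its start site at percentiles of 91.1 to 94.3 in all 6 libraries, although its promoter peak was missing in 4. The promoter of its neighbour Flvcr2 was the other top peak of that window.

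In all, the windows held 240 distinct regions, of which 7 were shared by the Batf3 and Atf3 windows on chromosome 1. Of these 240 regions, 106 (44.2%) had a peak in all 6 libraries. The share was 30.2% over all regions, and its median over the windows of all 21938 protein-coding genes was 35.1%. The windows differed in gene density. Fosb, Fosl1 and Junb had 7, 11 and 9 other coding genes and 20, 19 and 18 regions in all 6 libraries, whereas Fos, Fosl2 and Jun had no other coding gene and 7, 7 and 8 such regions. Regions at a promoter of any gene numbered 53 (14 own and 39 of other genes), and the other 187 were distal.

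**Figure D2:**
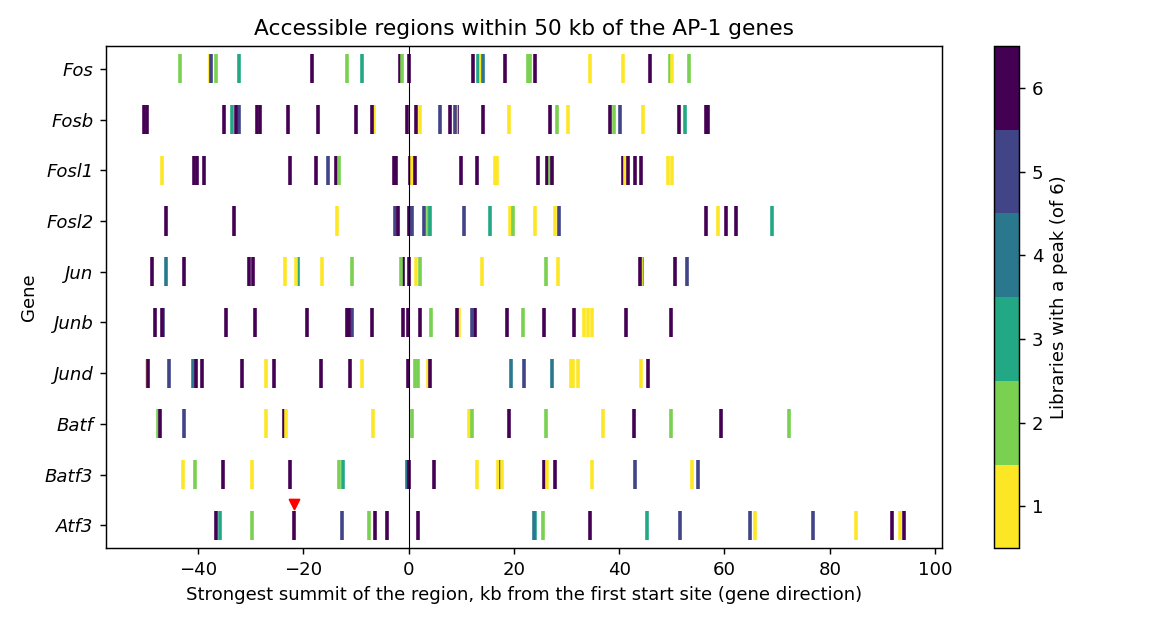
Strongest summit of each merged region (x axis, kb from the first start site in the direction of the gene) for the 10 genes (y axis), coloured by the number of libraries with a peak. Dark marks are present in all 6 libraries, and the red triangle marks the Atf3 region 21.7 kb before the first start site.

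Presence differed between groups for few regions, and mostly for weak peaks. The part of the larger number of mapped reads in White than in Beige in these counts was not tested. A peak in both Beige and in no White library was found for 12 of 240 regions (5.0%), against 4.5% of all regions. The reverse was found for 0 of 240, against 1.98%. Beige without Brown was found for 14 regions (5.8%), against 4.8%, and Brown without Beige for 2 (0.83%), against 1.56%. Brown without White was found for 6 (2.5%), against 2.94%, and White without Brown for 1 (0.42%), against 3.48%. Dropping Beige 1, by which a single Beige library meets the condition, raised the counts of Beige without White and Beige without Brown to 40 and 43. Dropping Beige 2, White 1 or White 2 raised Beige without White to 20, 24 and 25. Dropping Beige 2, Brown 1 or Brown 2 raised Beige without Brown to 21, 22 and 16. The shares over all regions are not given for these settings, so the counts are not set against a background. White without Beige reached 15 without White 1 and 13 without White 2, and 3 without Beige 2. Brown without Beige reached 4 to 10 without any one Beige or Brown library, Brown without White 13 to 19 without any one White or Brown library, and White without Brown 26 without White 1, 14 without White 2, 4 without Brown 1 and 2 without Brown 2.

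The regions present in Beige without White included one 19.5 kb after the Jund start site, at the Gm3336 promoter, with -log10 q of 22.3 and 21.1 in Beige, no peak in White, and 8.2 and 9.7 in Brown. A region 28.2 kb after Fosb, 759 bp from a start site of Rtn2, had -log10 q of 11.2 and 15.5 in Beige alone. Around Batf3, a region 13.2 kb before the start site had 12.1 and 7.2 in Beige alone, and one 0.3 kb before it had 6.4 and 4.0 in Beige and 4.8 and 3.9 in Brown. Around Fos, a region 23.0 kb after the start site was seen in Beige alone with 7.3 and 10.2, and regions 43.4 kb before and 53.3 kb after were seen in Brown alone, with 4.7 and 5.8, and 8.9 and 5.4. Around Jund, a region 1.7 kb after the start site was present in Beige alone with 7.0 and 7.3. The largest value among regions missing in Brown was 33.9 and 52.4 in Beige for a region 33.6 kb before Fosb, 1.1 kb from a start site of Ercc1, which White 2 also had at 10.3. Around Atf3, regions 7.5 and 29.8 kb before the first start site were seen in Beige alone, with values from 3.5 to 7.0. One region 23.8 kb after it had peaks in both White libraries, 3.0 and 15.0, and in Beige, 7.7 and 5.6, but not in Brown.

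The 106 regions with a peak in all libraries were compared by limma on quantile-normalised log2 fold enrichment, fitted over all 58720 such regions. The Atf3 region 21.7 kb before the first start site (chr1:191239486-191239956, intergenic) was the single AP-1 region called at an adjusted p under 0.05. Its percentile was 73.7 and 74.9 in Beige, 10.8 and 3.7 in White, and 73.6 and 74.4 in Brown. The -log10 q was 22.6 and 28.7, 2.9 and 1.9, and 21.6 and 17.9, so that White was close to the calling limit and far below both other groups, which lay together. The difference was 1.31 ± 0.23 (SE) for Brown minus White (limma, adjusted p = 0.036) and 1.26 ± 0.23 for Beige minus White (limma, adjusted p = 0.0505), and -0.05 ± 0.23 for Beige minus Brown (adjusted p = 0.94). The first passed the threshold and the second missed it narrowly. The Brown-White call was ranked 52nd by p among 277 called regions. It was lost without either Beige library, either Brown library or White 2 (adjusted p 0.058 to 0.23, difference 1.25 to 1.33), and held without White 1 (1.42, adjusted p = 0.017). Beige minus White passed without either White library (1.37 and 1.20, limma, adjusted p = 0.034 for both) and missed without any other library (adjusted p 0.11 to 0.30). The region lay farther from the second Atf3 start site, where the promoter peak was found, 34.5 kb after the first.

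**Figure D3:**
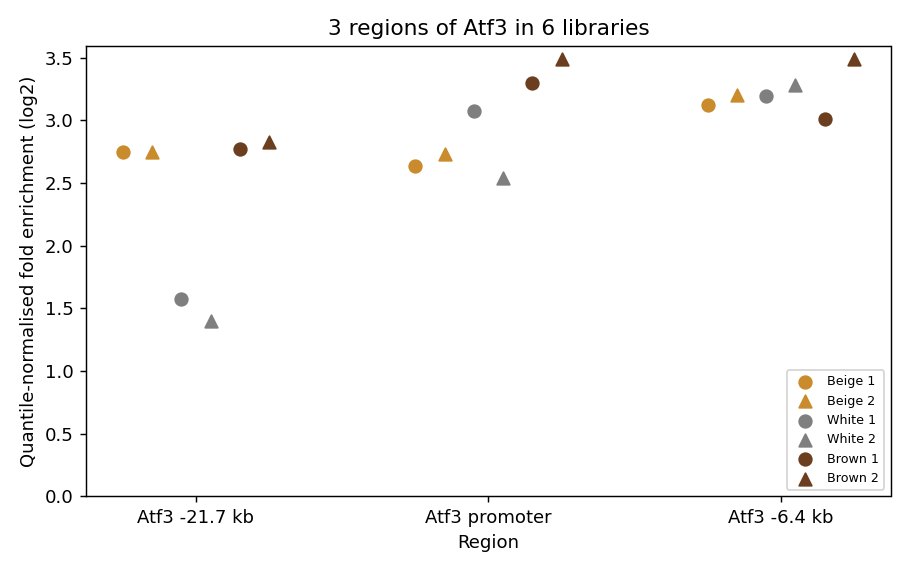
Quantile-normalised log2 fold enrichment (y axis) of 3 Atf3 regions (x axis) in the 6 libraries, circles and triangles being libraries 1 and 2. The -21.7 kb region lay at 1.57 and 1.40 in White and between 2.75 and 2.82 in Beige and Brown, whereas the -6.4 kb region lay between 3.01 and 3.49 in all libraries.

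The share of regions called was 0.0783% of all 58720 for Beige against White, 0.0% for Beige against Brown, and 0.472% for Brown against White, beside 0, 0 and 1 of the 106 AP-1 regions. The totals rested on single libraries: without White 1 they were 431, 1767 and 2831, without White 2 1686, 1585 and 138, without a Beige library 1, 0 and 7, and without a Brown library 1, 0 and 0. Among AP-1 regions the counts were then at most 4. For Beige against Brown, limma called no region at all with all libraries, although 9039 had an unadjusted p under 0.05. At an unadjusted p under 0.05, 14 of 106 AP-1 regions (13.2%) passed in each of the 3 comparisons, against 18.2%, 15.4% and 17.7% of all regions. The median difference over the AP-1 regions was -0.04, -0.07 and 0.11 for Beige minus White, Beige minus Brown and Brown minus White, beside -0.01, -0.03 and 0.01 over all regions.

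Among promoters, the Jund promoter had the largest difference, 0.80 ± 0.26 (SE) for Brown minus White (limma, adjusted p = 0.13). Its -log10 q was 161 and 122 in Beige, 37.6 and 19.0 in White, and 153 and 171 in Brown. The Atf3 promoter differed by -0.71 ± 0.22 for Beige minus Brown (limma, adjusted p = 0.16) and by 0.59 ± 0.22 for Brown minus White (adjusted p = 0.19). The Jun and Fosl2 promoters had differences of -0.63 ± 0.24 and -0.64 ± 0.29 for Beige minus Brown (limma, adjusted p = 0.24 and 0.31). The Fos promoter had -0.33 ± 0.22 for Beige minus White (limma, adjusted p = 0.46), and 0.23 ± 0.25, the opposite sign, with -log10 q in place of fold enrichment (adjusted p = 0.65). None of the 9 promoters passed the test in any comparison. Some did under another measure, without a library or over another set of regions. For the comparisons named below, these settings also called more regions in the whole table. With -log10 q these were 1633 against 277 by fold enrichment for Brown against White, and 1195 against 46 for Beige against White. In the 4 libraries compared, Beige against Brown had 2052 against 0. With -log10 q in place of fold enrichment, the Jund promoter passed for Brown minus White (1.95, limma, adjusted p = 0.0085) and Beige minus White (1.72, adjusted p = 0.015), the Fosb promoter for Brown minus White (1.17, adjusted p = 0.049) and the Atf3 promoter for Brown minus White (1.04, adjusted p = 0.044). The Atf3 promoter also passed for Brown minus White without White 1 (0.86, limma, adjusted p = 0.046) and for Beige minus Brown without White 2 (-0.73, adjusted p = 0.046). It passed as well for Beige minus Brown when the regions with a peak in the 4 Beige and Brown libraries were tested (-0.74, limma, adjusted p = 0.041).

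**Figure D4:**
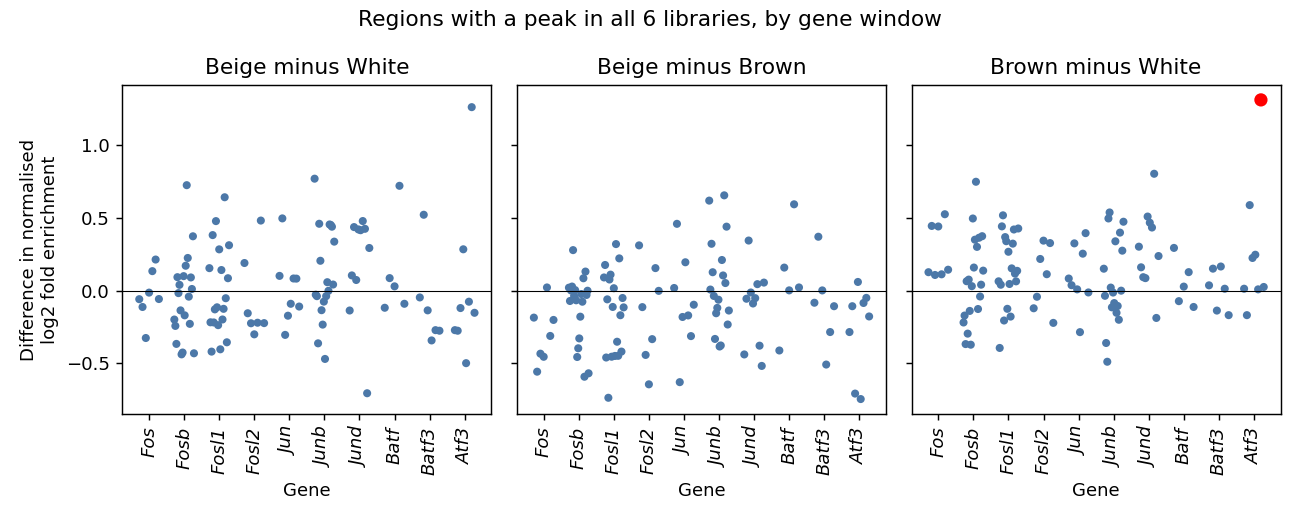
Difference in normalised log2 fold enrichment (y axis) for each region with a peak in all 6 libraries, by gene window (x axis), in the 3 comparisons. The red point, 1.31 for the Atf3 region at -21.7 kb in Brown minus White, is the single region with an adjusted p under 0.05.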

How the data were processed

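Peaks of 6 ATAC-seq libraries were analysed. The authors trimmed reads with Trimmomatic, aligned them to mm10 with BWA and called peaks with MACS2 in each library at q under 0.05, and the brown libraries carry the same tools per the labels. The deposited lists hold fold enrichment over local background as a ratio and -log10 q values, without read counts. The study's depth table covers the Beige and White libraries, with more mapped reads in White, and was not used to scale the lists.

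Summit lines of an interval were joined at the highest -log10 q, and intervals overlapping by 1 bp were merged over libraries. Start sites were from GENCODE release 21 (mouse, basic). Regions with a peak in all 6 libraries were quantile-normalised and tested with limma 3.58.1 in R 4.3.3 (trended prior, Benjamini-Hochberg adjustment over all such regions), checked on simulated data. Tables used Python 3 with pandas. The gene members, windows and lists were chosen with earlier results of these data known. All 10 genes were named with their promoters, and other regions when they passed an adjusted p of 0.05 or were present in both libraries of one group and none of another, at most 5 a gene, with a few strongest regions named after their values were seen. Alternatives were tried as given in the closing section. Brown libraries are not described in the methods used here.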

Additional observations from a re-analysis of the deposited data

How the results depend on the processing

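Promoter peaks of 9 genes in all libraries held under every alternative run, including counting every summit line as a peak, an alternative chosen after seeing the data. The windows of 25 and 100 kb held 143 and 396 regions, of which 60 and 173 had a peak in all 6 libraries. With 25 kb, Beige without Brown fell to 8, Brown without Beige to 0 and Brown without White to 3. With 100 kb, Beige without White rose to 21, White without Beige to 3, Brown without White to 12 and White without Brown to 7. A q under 1e-05 gave 9 for Beige without Brown, lists of equal length gave 0 for White without Brown, and summits within 250 bp gave 1 for Brown without Beige. Leaving out 1 library at a time gave 12 to 40 regions for Beige without White, 0 to 15 for White without Beige, 14 to 43 for Beige without Brown, 2 to 10 for Brown without Beige, 6 to 19 for Brown without White and 1 to 26 for White without Brown. A group left with 1 library meets its own condition more easily by construction. Shares over all regions are not given for any of these alternatives, so the counts are not set against a background.

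The mean of the median AP-1 promoter percentile was 54.0 in Beige, 52.6 in White and 67.3 in Brown. It became 43.5, 37.5 and 58.2 at a q under 1e-05, 47.9, 47.9 and 66.5 with lists of equal length, and 91.1, 85.5 and 93.5 when peaks were ranked by -log10 q. Without 1 library it was 50.7 to 57.2, 42.6 to 62.5 and 61.8 to 72.8. The median of all promoter peaks is given by fold enrichment only, so the values by -log10 q have no such median beside them. AP-1 matches occurred in 15.0% of regions within 50 bp of the summit.

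Counts of limma calls moved strongly, and the cause was not tested. Over the tested regions, the Spearman correlation was 0.893 between the Beige, 0.871 between the Brown and 0.790 between the White libraries. Libraries of different groups correlated at 0.715 to 0.808, so the White libraries agreed no better with each other than some of these pairs. For Beige against White the count over all regions was 154 at a q under 0.01, 339 at 1e-05, 164 with lists of equal length, 791 with median centring, 1195 with -log10 q, 0 without a trend and 1 over regions in the 4 libraries compared, and 1 to 1686 without 1 library. The AP-1 regions among these were 3 with median centring, 6 with -log10 q and 0 to 3 without 1 library. For Beige against Brown the count was 46 at a q under 1e-05, 411 with median centring, 1 with -log10 q, 2052 in the 4 libraries compared (2 AP-1 regions) and 0 to 1767 without 1 library (0 to 2 AP-1 regions). For Brown against White it was 842 with median centring, 1633 with -log10 q (6 AP-1 regions), 31 without a trend, 48 in the 4 libraries compared (0 AP-1 regions) and 0 to 2831 without 1 library (0 to 4 AP-1 regions). At a q under 0.01, under 1e-05 and with lists of equal length 0 AP-1 regions were called, since the Atf3 region then lacked a White peak and was not tested.

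Deviations of same-numbered libraries correlated at 0.096 for Beige with White, -0.015 for Beige with Brown and 0.046 for White with Brown. With 2 libraries per group these values cannot decide whether same-numbered libraries were prepared together. With the replicate block the counts were 1653, 942 and 1368 over all regions, and 3, 1 and 1 among AP-1 regions, for Beige against White, Beige against Brown and Brown against White. For the Atf3 region at -21.7 kb, Beige minus White and Brown minus White stayed above 0 under each alternative in which it was tested, and Brown minus White ranged over adjusted p values of 0.0085 to 0.23. The lists give no reads per region. The study gives more mapped reads for White than for Beige, and whether a missing peak reflects depth was not tested.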
